A study of Mus musculus with 70 samples.

Results

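The T cell receptor variable (V) genes were taken as every row of the count matrix whose symbol begins with Trav, Trbv, Trgv or Trdv and which the GENCODE M21 annotation types as TR_V_gene. There were 136 of them among the 52636 genes of the matrix: 108 of the alpha chain, 22 of the beta chain, 5 of the delta chain and 1 of the gamma chain. The annotation holds 8 further V genes under other symbols, 6 of them gamma V genes named Tcrg-V, which the rule leaves out.

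The libraries came from blood leukocytes of C57BL/6J mice, bought at 7 weeks of age, that had gone through chronic social defeat stress (CSDS) or had not. In CSDS a mouse meets an aggressive CD-1 mouse each day for 10 days. Defeated mice were then sorted by a social interaction test into susceptible (SUS) and resilient (RES) mice, and unstressed controls (CON) stood beside them. T cells had been sorted from trunk blood by the surface protein CD90.2, and this left 6 CON, 6 SUS and 5 RES libraries. The labels give neither the sex nor the mouse behind a library, and nothing in them says that libraries of a group came from separate mice, so p-values measure only the spread between these samples, which may be technical. The labels also name the source as brain, whereas the study's design text names blood.

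A T cell builds its receptor by joining 1 V gene to shorter joining segments, with a diversity segment in between in the beta and delta chains. The V gene supplies the first loops of the binding site, and the joint after its last cysteine forms the third and most variable loop, CDR3. Most blood T cells carry an alpha and a beta chain, and a minority carry a gamma and a delta chain. Which V genes are used, and how evenly, is a coarse picture of the repertoire: reads over a V gene do not count clones, and no CDR3 was read here.

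The joining end of the most used V genes is shown first, since it is where the receptor sequences start to differ between cells. Each line gives the last 60 bases of the spliced transcript in GENCODE M21 (GRCm38), 5′ to 3′ on the coding strand, with the letters TGTGC in capitals where they occur last: the codon of the conserved cysteine and the start of the next codon. These letters were searched on the coding strand only and occurred in the last 60 bases of 112 of the 136 transcripts (82.4%). The beta chain genes that follow lay on the plus strand of chromosome 6, Trbv3 at chr6:41048290-41048828, Trbv15 at chr6:41141188-41141658 and Trbv16 at chr6:41151740-41152230, with the 3 Trbv13 genes between chr6:41116007-41130585.
Trbv3: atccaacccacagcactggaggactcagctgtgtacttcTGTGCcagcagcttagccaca
Trbv15: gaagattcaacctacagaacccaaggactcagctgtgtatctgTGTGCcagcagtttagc
Trbv16: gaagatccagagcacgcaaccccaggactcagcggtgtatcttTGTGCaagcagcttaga
Trbv13-1: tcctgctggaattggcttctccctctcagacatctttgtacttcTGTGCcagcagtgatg
Trbv13-2: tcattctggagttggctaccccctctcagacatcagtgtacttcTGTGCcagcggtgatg
Trbv13-3: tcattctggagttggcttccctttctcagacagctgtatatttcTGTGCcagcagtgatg

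The leading alpha chain genes lay on the plus strand of chromosome 14, Trav14-2 at chr14:53640701-53641225, Trav7-4 at chr14:53461099-53461738, Trav14-1 at chr14:53554022-53554558, Trav13-1 at chr14:53545014-53545525 and Trav5-4 at chr14:53704007-53704514. Trav14n-1 and Trav14d-1 are shown under them because they were identical over their whole transcripts and were counted apart all the same.
Trav14-2: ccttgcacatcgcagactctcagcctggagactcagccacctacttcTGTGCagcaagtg
Trav7-4: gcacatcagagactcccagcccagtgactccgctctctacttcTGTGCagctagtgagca
Trav14-1: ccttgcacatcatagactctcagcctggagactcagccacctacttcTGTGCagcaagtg
Trav13-1: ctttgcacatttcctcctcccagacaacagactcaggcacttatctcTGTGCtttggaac
Trav5-4: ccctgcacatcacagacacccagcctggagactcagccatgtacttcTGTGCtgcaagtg
Trav14n-1: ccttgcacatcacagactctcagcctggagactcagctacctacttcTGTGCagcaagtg
Trav14d-1: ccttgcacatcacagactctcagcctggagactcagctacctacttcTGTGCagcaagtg

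The 17 T-cell libraries held 27257572 to 46923129 counts each. The 12 T cell markers fixed for the check (Cd3d, Cd3e, Lck, the constant genes and others) summed to 3509 to 6124 CPM (counts scaled to a common library total) in all 17, and the B cell list of 5 genes to 7.85 to 22.4. One further library, number 70, is labelled T cells of a RES mouse and was left out: its T cell markers summed to 17.1 CPM and its B cell markers to 3552 CPM. Library 52, labelled RES B cells, went the other way, with 3506 CPM of T cell and 7.91 CPM of B cell markers. Red cell genes summed to 928 to 2941 CPM in CON, 1666 to 4706 in SUS and 1755 to 4799 in RES, scaled by the TMM factors of edgeR (trimmed mean of M values), and their part in any value given here was not tested.

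V reads came almost wholly from genes counted as alpha or beta. The chain was taken from the start of the symbol. Genes with a double alpha and delta name, such as Trav15-1-dv6-1 (20 to 163 reads per library), were therefore counted as alpha. Delta values here cover the 5 Trdv genes only, and use of the double-named genes in delta chains was not measured. Alpha V reads ran from 2407 to 7076 per library and beta V reads from 4617 to 14683. Delta V reads ran from 61 to 350, and Trgv2, the 1 gamma member, had between 2 and 236. Delta and Trgv2 reads together were 1.74% of V reads in the median library.

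The amount of V RNA overlapped between the groups. Alpha V reads were 127 ± 15.9 CPM in CON (SD, n = 6), 117 ± 22.1 in SUS (n = 6) and 119 ± 31.8 in RES (n = 5), and the RES libraries lay at 82.7, 87.0, 139, 141 and 148 CPM. Beta V reads were 240 ± 59.3 CPM in CON, 220 ± 54.5 in SUS and 227 ± 54.6 in RES. Set against the constant gene of the same chain, the alpha V count was 0.385 ± 0.029 of the Trac count in CON, 0.354 ± 0.017 in SUS and 0.387 ± 0.079 in RES. Helper and cytotoxic T cells carry Cd4 and Cd8a, and Cd4 made up 40.4% ± 3.94 of their summed counts in CON libraries, 42.8% ± 3.96 in SUS libraries and 38.7% ± 4.74 in RES libraries. In bulk samples fewer cells of a type and less RNA per cell cannot be told apart.

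Outside T cells the V genes were near 0, with a single exception. In the 18 libraries of Ly6C-high monocytes the highest V count was 80, and in 17 B-cell libraries (number 52 apart) it was 26. The 16 Ly6C-low monocyte libraries held 0 to 39 alpha and 0 to 55 beta V reads, while their delta V reads ran from 70 to 505 and were above 0 in all 16. Trgv2 had no read in the 51 libraries of the other cell types.

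Trbv3 was the most used beta V gene. Its share of beta V reads was 14.9% at the lowest, 18.1% at the median and 19.9% at the highest in CON, 13.2%, 17.9% and 20.5% in SUS, and 16.2%, 17.0%, 17.3%, 14.7% and 15.3% in the 5 RES libraries. It ranked first in 16 of the 17 libraries, and Trbv15 ranked first in the other one. The groups overlapped throughout: the usage fit gave Trbv3 a log2 fold change of -0.04 ± 0.12 (SE) in SUS vs CON and -0.15 ± 0.12 in RES vs CON, with adjusted p = 0.999 and 1.000 by edgeR's quasi-likelihood test.

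Trbv15 followed with 10.4% ± 1.51 of beta V reads in CON, 11.2% ± 2.19 in SUS and 11.2% ± 1.96 in RES. Trbv16 held 7.24% ± 1.16 over the 17 libraries. The 3 Trbv13 genes, which are between 85.3% and 90.6% identical to each other, held 6.48% (Trbv13-1), 6.65% (Trbv13-2) and 6.26% (Trbv13-3), and 19.4% ± 2.62 as a family. The family held 19.5% ± 1.97 of beta V reads among CON libraries, 18.2% ± 1.90 among SUS and 20.7% ± 3.69 among RES, with overlapping ranges. Together the 5 leading beta V genes made up 48.4% of beta V reads and the 10 leading ones 77.2%. At the other end Trbv5, Trbv30, Trbv4, Trbv21 and Trbv23 each averaged below 1%.

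**Figure D1:**
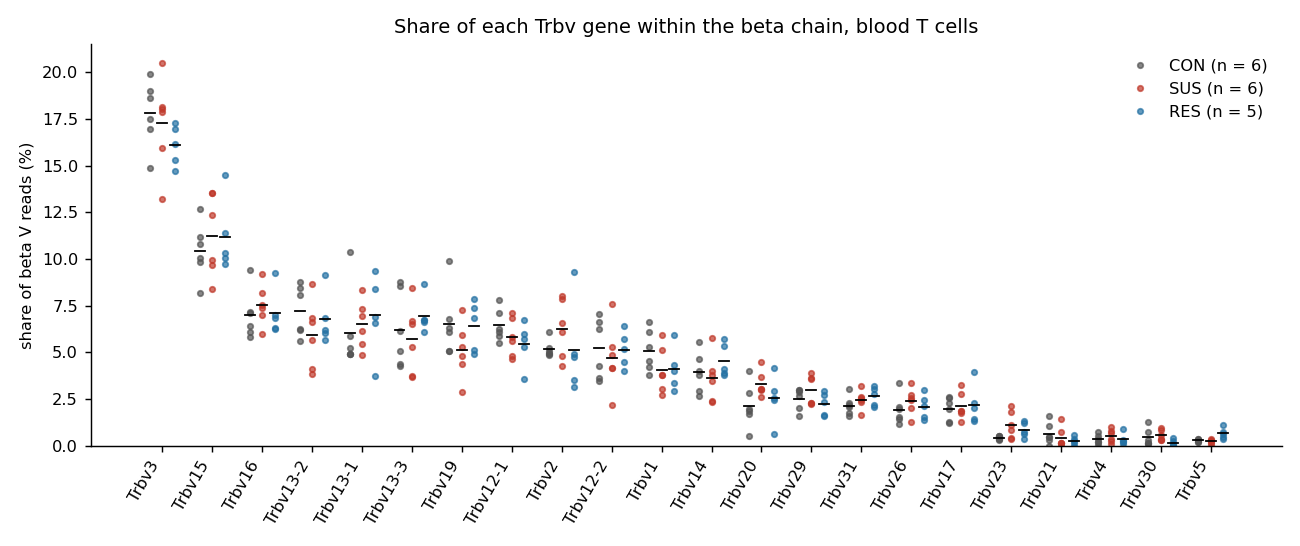
Share of each Trbv gene among beta V reads (y axis, %) for the 22 genes ordered by mean share (x axis), with 1 point per library in CON (n = 6), SUS (n = 6) and RES (n = 5) and a line at each group mean. Trbv3 stands alone between 13.2% and 20.5%, Trbv15 comes next, and the points of the 3 groups overlap for 21 of the 22 genes, Trbv5 being the exception.

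Longer genes can gather more reads, so the order was also set by share per kilobase of exon. Over the 22 beta genes the Spearman correlation of length with count was only 0.24. On that scale Trbv3 (15.0%) and Trbv15 (11.8%) kept the leading places, Trbv13-2 (7.79%) and Trbv13-3 (7.33%) came before Trbv16 (7.25%), and Trbv19 moved from rank 7 to rank 11. The order of Trbv13-2, Trbv16 and Trbv13-3 was within their spread: their SD over the 17 libraries was 1.16 to 1.69 percentage points of the plain share, wider than the gaps between their means.

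Alpha V usage was spread over far more genes. Trav14-2, the most used, held 3.99% ± 1.18 of alpha V reads over the 17 libraries, Trav7-4 3.90% ± 1.42, Trav14-1 3.44% ± 1.47, Trav13-1 3.15% ± 1.34 and Trav5-4 3.13% ± 1.61. The 5 made up 17.6% of alpha V reads, against 48.4% for the 5 leading beta genes. No single gene led everywhere: Trav7-4 was first in 5 libraries, and 8 other genes were first in the remaining 12. Of the 108 alpha genes, 35 averaged above 1% and 24 below 0.1%. By subgroup, the 9 Trav14 genes together held 18.4% ± 2.42 and the 13 Trav7 genes 12.6% ± 2.68. The Trav14 sum stayed between 17.2% and 18.9% in the 6 CON libraries and ran from 13.8% to 24.3% in SUS and 17.0% to 22.1% in RES. The Trav7 sum went the other way, with 10.2% to 19.9% in CON, 8.72% to 14.5% in SUS and 10.6% to 14.7% in RES. Whether the spread of subgroups differed between groups was not tested.

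Among groups the leading alpha genes varied as much within as between. Trav14-2 ran from 3.12% to 4.16% in CON with a median of 3.83%, and from 2.70% to 6.07% in SUS with a median of 4.17%. The RES libraries were at 4.90%, 5.08%, 2.37%, 4.68% and 1.82%. Trav5-4 spanned 1.56% to 3.20% in CON, 1.47% to 6.89% in SUS and 0.809% to 6.33% in RES. In these genes the lowest and the highest library of the stressed groups lay on both sides of the controls.

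In the mouse the middle of the alpha locus was copied, and many genes exist as d and n copies beside an original without a letter. The 46 genes with no copy letter held 71.3% ± 2.89 of alpha V reads, the 34 d copies 13.7% ± 2.93 and the 28 n copies 15.0% ± 2.52 (SD, n = 17). By group the d copies held 13.2% ± 2.24 in CON, 15.1% ± 1.75 in SUS and 12.6% ± 4.43 in RES, and these ranges overlapped. Within the copies most reads fell on few genes, such as Trav14d-3-dv8 (2.86%), Trav14n-3 (3.11%) and Trav16n (2.38%).

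**Figure D2:**
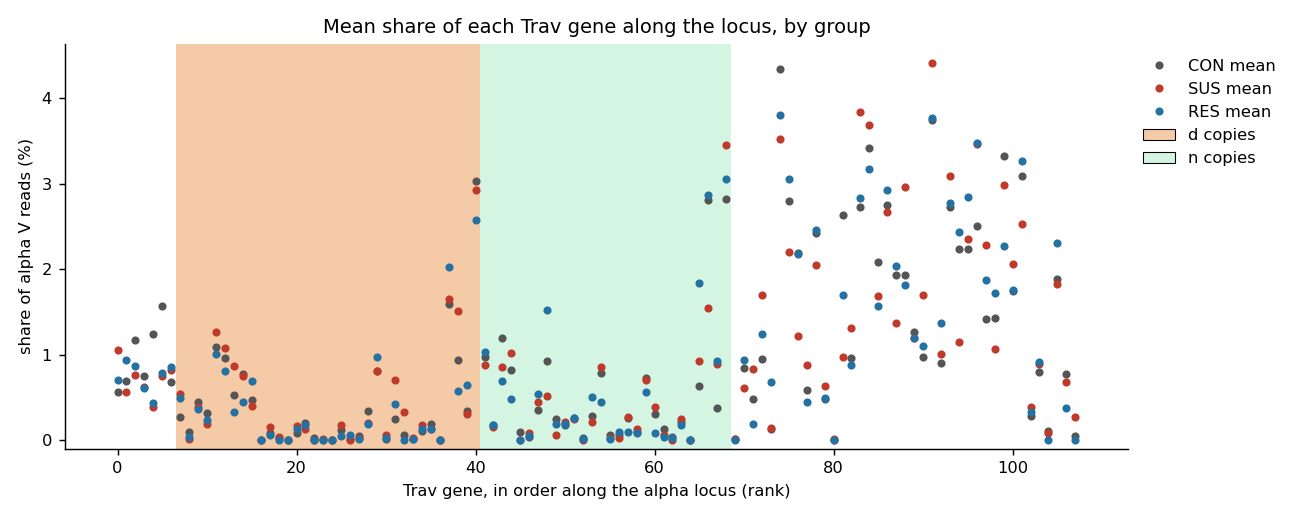
Mean share of alpha V reads (y axis, %) of the 108 Trav genes in their order along the locus (x axis, rank), with 1 point per group (CON, SUS, RES) and shading over the d and n copies. Most copies lie near 0, and the genes above 1% sit mainly to the right of the copies, where no gene averages above 5% in any group.

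The copies share sequence, and that bears on how reads could be assigned. A window of 100 bases was called shared when it occurred exactly in the transcript of another V gene or V pseudogene. None of the 22 beta genes shared any window, and neither did 19 of the 108 alpha genes. In 52 alpha genes at least 50% of the windows were shared, and in 35 of those every window was. The 35 had a median count of 2 per library, against 44 in the 19 genes without a shared window and 59 in the 37 genes with fewer than 50% shared. Over the 108 alpha genes the Spearman correlation of shared windows with total count was -0.67, a description across genes that share libraries and base composition.

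**Figure D3:**
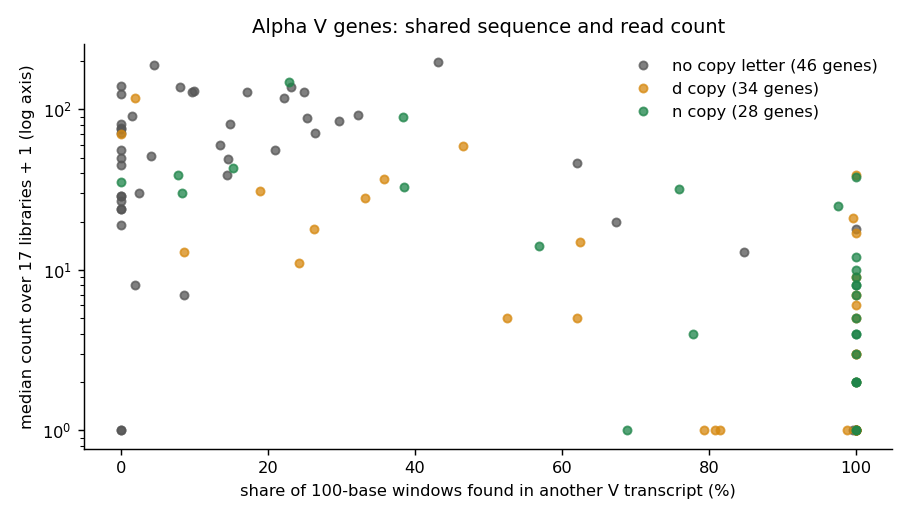
Median count over 17 libraries plus 1 (y axis, log) against the share of 100-base windows found in another V transcript (x axis, %) for the 108 alpha V genes, coloured by copy letter. Genes with every window shared reach a median count of at most 38, while genes below 50% shared reach 195.

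Identical copies did not receive identical counts. There were 20 pairs of alpha genes with no mismatch over the shorter transcript. Trav14n-1 had 6 to 175 reads per library with a median of 37, and its twin Trav14d-1 had 0 to 28 with a median of 6. Trav12n-1 had up to 22 reads while Trav12d-1 had none in any of the 17 libraries. Trav13d-3 and Trav13n-3, 99.7% identical to each other, also had no read anywhere. How the counting dealt with reads that fit several copies is not given in the sources used here, so values of single copies are uncertain.

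Trav11 and Trav11d belong to this group. Trav11, joined to the segment Traj18, gives the invariant alpha chain of natural killer T cells. Trav11 at chr14:53519303-53519859 had at most 2 reads and Trav11d at chr14:52824357-52824912 at most 23, and both transcripts were identical over their shared length. Their ends lack the searched letters and read as follows.
Trav11: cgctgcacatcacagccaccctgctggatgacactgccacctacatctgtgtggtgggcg
Trav11d: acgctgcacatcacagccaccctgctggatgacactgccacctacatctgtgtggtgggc

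Trav1, whose pairing with Traj33 marks mucosal-associated invariant T cells, averaged 0.568% ± 0.418 of alpha V reads in CON, 1.06% ± 0.765 in SUS and 0.703% ± 0.586 in RES. Traj33 had 37 to 64 reads in the 6 SUS libraries (1.02 to 1.58 CPM), 0 to 36 in CON (0 to 0.870 CPM) and 0 to 96 in RES (0 to 2.73 CPM). In CPM, 0.345% of all genes tested did not overlap between SUS and CON either, and no tested joining segment was called in any comparison. Trbv29, one of the beta genes often paired with natural killer T cell receptors, held 2.61% ± 0.70 of beta V reads over the 17 libraries.

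No V gene passed the test between any groups. Of the 136, 103 had enough reads to be tested (76 alpha, 22 beta, 4 delta, 1 gamma), and 33 were left out for low counts, 3 of them with no read at all. The level fit asks whether the RNA of a gene differs per library, and the usage fit whether its share within its chain does. Both used edgeR's quasi-likelihood test over 18860 genes, with Benjamini-Hochberg adjustment and a threshold of 0.05.

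In SUS vs CON the level fit called 0 of 103 V genes, beside 0.0424% of all genes tested, and 5 had an unadjusted p under 0.05 (1 higher, 4 lower), beside 4.8% of all genes. In RES vs CON it called 0 V genes, beside 0% of all genes, and 0 had an unadjusted p under 0.05, beside 4.11%. In SUS vs RES it called 0, beside 0%, with 2 at an unadjusted p under 0.05 (both lower in SUS), beside 2.37%. The median log2 fold change of the 103 was -0.09 when SUS was set against CON, -0.12 when RES was, and 0.09 from RES to SUS, and that of all genes was within 0.01 of 0 in each.

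The usage fit gave the same counts of calls. It called 0 V genes in SUS vs CON (all genes 0.0424%), 0 in RES vs CON (0%) and 0 in SUS vs RES (0%). At an unadjusted p under 0.05 there were 2 V genes in SUS vs CON (all genes 4.79%), 0 in RES vs CON (4.11%) and 1 in SUS vs RES (2.38%). DESeq2, run as another tool on the same genes, also called 0 V genes in each of the 6 comparisons, and its level fit gave an unadjusted p under 0.05 to 8 V genes in SUS against CON (all genes 5.59%), to 1 in RES against CON (4.85%) and to 7 in SUS against RES (3.31%).

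Trav7-5 had the smallest p in SUS vs CON. Its share of alpha V reads was 1.36% at the lowest, 2.62% at the median and 3.97% at the highest in CON, and 0.288%, 0.816% and 2.10% in SUS. The RES libraries were at 1.09%, 1.68%, 2.21%, 2.27% and 1.25%. Most SUS libraries lay below the controls, yet the ranges overlapped. The usage log2 fold change was -1.44 ± 0.51 (adjusted p = 0.610) and the level log2 fold change -1.57 ± 0.51 (adjusted p = 0.481), both by edgeR. No 100-base window of Trav7-5, at chr14:53530786-53531313, occurred in another V transcript.

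Trbv23 came next in usage. It held 0.328% to 0.520% of beta V reads in CON and 0.364% to 2.13% in SUS, and 0.751%, 1.22%, 0.334%, 1.33% and 0.617% in RES. The usage log2 fold change was 1.37 ± 0.54 in SUS vs CON (adjusted p = 0.756) and 0.97 ± 0.56 in RES vs CON (adjusted p = 1.000). The CON libraries sat in a narrow band, and both stressed groups reached into it and above it. Trbv19 had a level log2 fold change of -0.51 ± 0.22 in SUS vs CON (adjusted p = 0.898), with mean shares of 6.54% ± 1.77 in CON and 5.10% ± 1.47 in SUS.

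In SUS vs RES the smallest p belonged to Trav14n-1, one of the identical copies above. Its share was 0.249% to 0.945% in SUS and 0.389%, 2.91%, 1.87%, 1.79% and 0.684% in RES, with a usage log2 fold change of -1.57 ± 0.72 (adjusted p = 1.000). Trav16n had 1.54% ± 0.675 in SUS and 2.86% ± 2.00 in RES. In RES vs CON the smallest p belonged to Trav6-4, with 0.132% ± 0.130 in CON and 1.54%, 0.466%, 1.09%, 0.172% and 0.152% in RES, a usage log2 fold change of 2.35 ± 1.24 and an adjusted p of 1.000 by edgeR.

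Trav8n-2, Trav9-4, Trbv30 and Trbv1 were also among the genes with the smallest p of a comparison, and each overlapped between the groups compared. Trav8n-2 held 0.033% to 2.11% of alpha V reads in CON, and 1.88%, 1.43%, 4.55%, 0.756% and 0.570% in RES. Trav9-4 had a median of 0.825% in SUS and 2.03% in RES, with ranges of 0.331% to 2.44% and 1.12% to 4.35%. Trbv30 was among the rarest beta genes, with 0% to 0.432% in RES and 0.092% to 1.29% in CON. Trbv1 had a level log2 fold change of -0.47 ± 0.29 in RES vs CON, with 5.09% ± 1.10 of beta V reads in CON and 4.11% ± 1.17 in RES.

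Few V genes had shares that did not overlap between groups. Of the 103 tested, there were 0 between SUS and CON, 1 between RES and CON and 2 between SUS and RES; in CPM, 0.345%, 0.615% and 0.244% of all genes tested did not overlap in the same pairs. Trbv5 held at most 0.375% in CON and 0.377% in SUS, and 0.492%, 0.378%, 0.713%, 0.647% and 1.09% in RES, so that the gap was smaller than the spread within any group. Its usage log2 fold change was 1.19 ± 0.80 in RES vs CON and -1.53 ± 0.81 in SUS vs RES (adjusted p = 1.000 in both). Trbv5 overlaps the long noncoding gene 5830405F06Rik on the same strand. Trav9d-1, named here after its values were seen, held at least 0.550% in SUS and at most 0.534% in RES.

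Delta V usage spread widely from library to library. Trdv4 held 0% to 54.5% of delta V reads in CON with a median of 12.5%, and 17.3% to 78.3% in SUS with a median of 63.0%. The RES libraries were at 81.0%, 0%, 9.88%, 12.8% and 29.6%. Each value rests on few reads: the Wilson 95% interval of a Trdv4 share reached ± 10.3 percentage points, for counting error only. The usage log2 fold change was 1.51 ± 0.84 in SUS vs CON and 0.51 ± 0.86 in RES vs CON, with adjusted p = 0.999 and 1.000 by edgeR. Without RES library 55, which held the 81.0%, the latter was -0.53.

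The other delta genes were as variable. Trdv2-2 held 37.4% ± 20.5 in CON, 17.6% ± 16.6 in SUS and 24.8% ± 8.55 in RES. Trdv1 ran from 0% to 54.4% over the 17 libraries, and Trdv5, which lies inside Trdc on the opposite strand, from 0% to 32.7%. Trdv2-1 had no read in the median library but made up 28.2% of delta V reads in 1 RES library. Trdv4, Trdv2-1 and Trdv2-2 overlap antisense genes, and without strand information in the counting, reads of the 2 strands cannot be told apart.

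**Figure D4:**
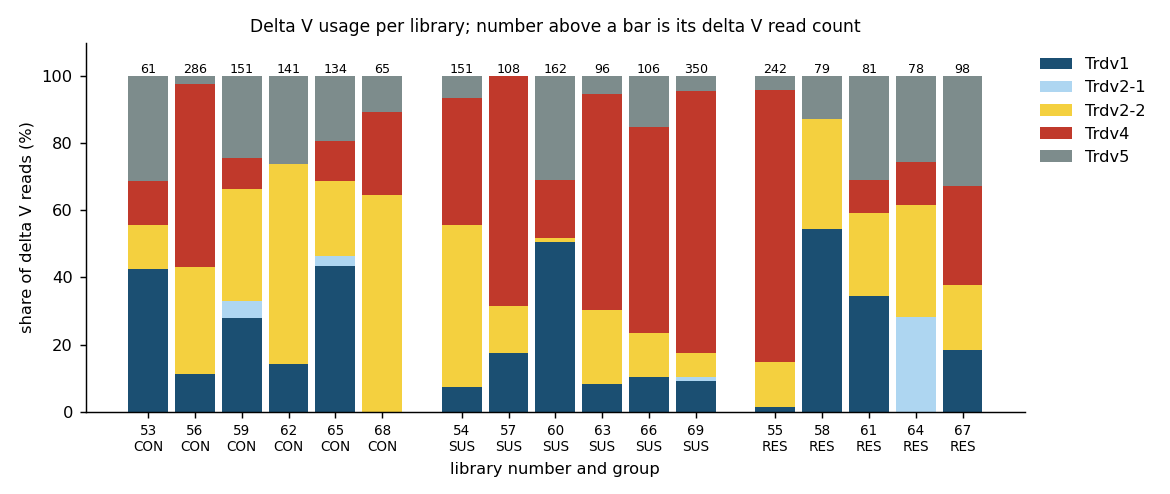
Stacked shares of delta V reads (y axis, %) of the 5 Trdv genes in each of the 17 libraries (x axis, library number and group), with the delta V read count of the library above its bar. Trdv4 makes up more than 50% of the bar in 1 of 6 CON, 4 of 6 SUS and 1 of 5 RES libraries, and the counts run from 61 to 350.

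Of the gamma V genes only Trgv2 falls under the rule. It had 2.57 ± 1.35 CPM in CON, 3.34 ± 2.69 in SUS and 3.53 ± 1.51 in RES, with level log2 fold changes of 0.47 ± 0.58 (SUS vs CON) and 0.55 ± 0.61 (RES vs CON) and adjusted p = 0.999 and 1.000 by edgeR. SUS library 69 stood apart with 8.48 CPM: without it the SUS mean was 2.31 ± 1.06 CPM (n = 5), below that of CON, and the log2 fold change was -0.12. Without RES library 67 the RES vs CON value was 0.14. Its reads made up 4.88% to 90.8% of the reads over Trgv2 and the Tcrg-V genes together.

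Evenness was measured with the Pielou index, the Shannon entropy of the shares divided by its largest possible value, which is 1 when all genes are used alike. It was computed over the 105 alpha and 22 beta genes that had a read. Alpha evenness averaged 0.851 ± 0.011 among CON libraries, 0.847 ± 0.010 among SUS and 0.840 ± 0.008 among RES. The CON libraries ran from 0.839 to 0.866, the SUS libraries from 0.838 to 0.863 and the RES libraries from 0.833 to 0.849. The RES mean was 0.011 below the CON mean, 1.13 times the pooled SD, with ranges that overlapped. When alpha genes were summed to subgroups the difference was -0.0013, 0.094 times the pooled SD and with the same sign.

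Beta evenness averaged 0.875 ± 0.016 among CON libraries, 0.884 ± 0.013 among SUS and 0.882 ± 0.011 among RES, and the 3 ranges overlapped. As an effective number, that is the number of equally used genes with the same entropy, alpha usage came to 52.4 ± 2.58 genes in CON, 51.6 ± 2.32 in SUS and 49.9 ± 1.80 in RES. Beta usage came to 15.0 ± 0.73, 15.4 ± 0.63 and 15.3 ± 0.51. Thinning each library to 2407 alpha reads left 51.9 ± 2.82 in CON and 49.8 ± 2.17 in RES.

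**Figure D5:**
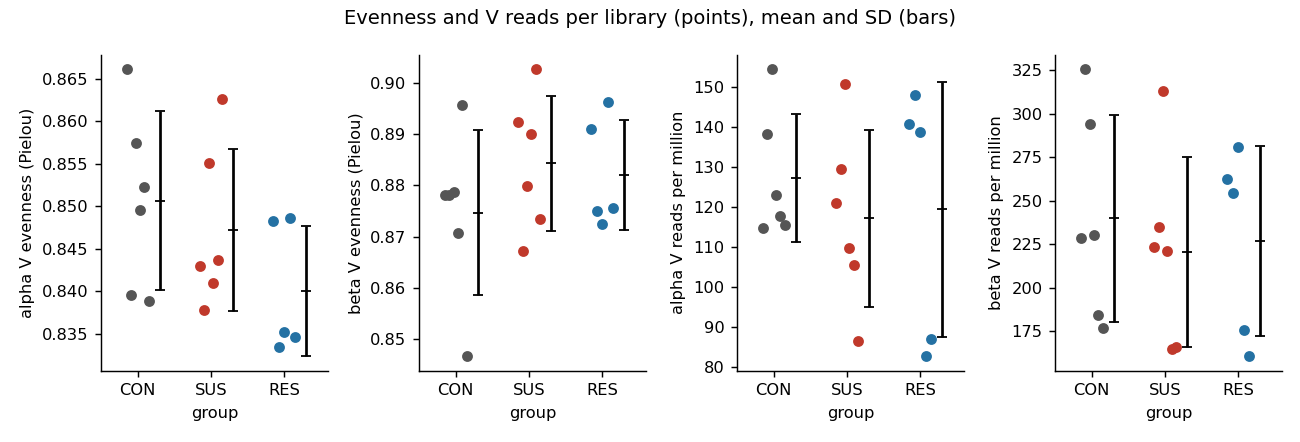
Pielou evenness of alpha and beta V usage and alpha and beta V reads in CPM (y axes) in CON, SUS and RES libraries (x axis), with 1 point per library and the mean ± SD beside them. The evenness axes do not start at 0; alpha evenness means fall between 0.840 and 0.851 and beta means between 0.875 and 0.884, with overlapping groups.

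Libraries of the same group differed about as much as libraries of different groups, apart from somewhat shorter alpha distances within CON. The distance between 2 libraries was the share of reads that would have to be moved to another V gene to make their usage equal. For alpha the median distance was 30.2% within CON, 34.0% within SUS and 33.0% within RES. Between groups it was 32.7% from SUS to CON, 31.4% from RES to CON and 33.5% from SUS to RES, each above the median within CON, with overlapping ranges. For beta the median distance was 13.6% within CON, 14.0% within SUS and 12.8% within RES. It was 13.8% from SUS to CON, 12.8% from RES to CON and 13.1% from SUS to RES.

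Averaged over libraries, usage was close in all groups. The mean shares of SUS and CON correlated over the 108 alpha genes with Pearson's r = 0.92 and over the 22 beta genes with r = 0.98, a description across genes within the same libraries. Between single libraries the median r was 0.68 for alpha and 0.93 for beta. The largest gap between group means was 1.66 percentage points in alpha (Trav7-5, SUS against CON) and 1.72 in beta (Trbv3, RES against CON).

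The spread between libraries was wider than read counting alone gives. The variance of a tested alpha gene's share over the 17 libraries was 19.8 times the binomial variance at the median, and 26.7 times in beta and 21.6 times in delta. Amplification of small RNA inputs and differences between mice cannot be told apart in that figure, since no molecular identifiers are given. Counting error itself was small for the large chains, with a Wilson 95% half-width of at most 1.13 percentage points for any beta gene and 0.865 for any alpha gene.

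The rest of the receptor machinery did not pass the test either. Of 21 genes listed for the receptor complex and its assembly (the constant genes, the CD3 chains that carry the signal, Cd4, Cd8a, Cd8b1, the joining enzymes and the kinases Lck and Zap70), 18 were tested and 0 were called in any comparison. Tcrg-C1, the constant gene of a gamma chain, had the one unadjusted p under 0.05, with a level log2 fold change of 1.12 ± 0.50 in SUS vs CON and an adjusted p of 0.952 by edgeR. SUS library 69 had 24.5 CPM of Tcrg-C1 and the other SUS libraries 3.22 to 9.76, and without it the log2 fold change was 0.54 ± 0.42. Rag2, a part of the recombinase that cuts at V genes in the thymus, had no read in any of the 17 libraries. Of 70 joining segments 62 were tested and 0 were called.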

How the data were processed

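RNA of sorted blood cells was sequenced by the authors as stranded total RNA libraries, 70 in all, of which 17 T-cell libraries are used here. Per the labels, the authors aligned reads to mm10 with HISAT2 and counted them with HTSeq; the deposited values are raw counts per gene, with no normalization, and the strand and multi-mapping options are not given in the sources used here. The authors' notes also name DESeq2.

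The 136 V genes, and the gene lists, were chosen with earlier results of these data known. Rows were matched to GENCODE M21 by gene ID (52403 of 52636). Genes with low counts were dropped by filterByExpr, leaving 18860. edgeR 4.0.16 (R 4.3.3) fitted TMM-scaled counts of all 3 groups together by the robust quasi-likelihood method, without covariates. In the usage fit, V genes were offset by the log of their chain's V total plus 0.5, and a chain under 50 V reads in any library kept the TMM offset, which applied to gamma. P-values were adjusted by Benjamini-Hochberg over all genes tested. DESeq2 1.42.0 was an alternative. Fits were tested on simulated data with changes placed in genes drawn from the whole table at 1 fixed spread. That spread was not matched to the V genes, so the simulation does not show what V gene change could be called. Shares, evenness and distances were computed in Python 3.11.15 with numpy 2.4.6, Wilson 95% intervals with scipy 1.17.1 and alignments with Biopython 1.88; no p-value was attached to them. Identity is the number of matching bases over the length of the shorter transcript. Intervals cover counting error only, as PCR reads are not independent molecules.

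Genes were named by rule: the 5 leading alpha and beta, up to 3 leading gamma and delta genes, the 3 smallest p-values of each comparison and fit, called genes, V genes of semi-invariant receptors, and copies of identical sequence. Promoters and recombination signals were not analysed here.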

Additional observations from a re-analysis of the deposited data

Results flagged for a closer look

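Across 117 sets of values (a measure in 1 group of 5 or 6 libraries), 13 had a library at either end set apart from the rest of its group by Dixon's criterion at the 95% level; chance gives about 1 in 20. In the SUS library numbered 69, delta V reads were 12.6 CPM against 2.49 to 4.30 in the other SUS libraries, Trgv2 was 8.48 CPM against 1.03 to 3.35, and the gamma and delta members together made up 7.70% of V reads against 1.06% to 2.17%.

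In the CON library numbered 68, Trbv13-1 held 10.4% of beta V reads (4.89% to 5.89% in the others), Trbv19 9.88% (5.07% to 6.80%) and Trav14n-1 2.16% of alpha V reads (0.448% to 0.958%). Trbv16 stood apart in the CON library numbered 65 with 9.43% and in the RES library numbered 67 with 9.27%. Trbv13-3 reached 8.68% in the RES library numbered 61, against 6.08% to 6.74%. Trdv1 made up 50.6% of delta V reads in the SUS library numbered 60, against 7.28% to 17.6%. For Trav11 and Trav11d the values rest on few reads: Trav11 was 0.083% of alpha V reads in SUS library 69 and 0.016% in RES library 55, with no read in the other libraries of either group, and Trav11d was 0.295% in CON library 53.

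Delta V reads appeared in the Ly6C-low monocyte libraries, which enter none of the comparisons. Their median was 163 reads per library (70 to 505), above 0 in all 16. Trdv4 was the leading gene, and Trdc was present at 2.83 to 17.9 CPM. The other genes of the fixed list of 6 gamma-delta T cell markers were near 0. Tcrg-C1 had no read in any of these libraries. Medians were 0 CPM for Tcrg-C2, 0.015 for Tcrg-C4, 0.085 for Sox13 and 0.234 for Blk. The T cell list of 12 genes summed to 44.9 to 200 CPM in these libraries and to 3509 to 6124 CPM in T cells. Its members differed: the medians were 37.4 CPM for Lck, 18.5 for Cd247, 10.9 for Trbc1, 9.37 for Thy1 and 2.29 for Trbc2. The other members, Cd3e among them at 0.031 CPM, had medians from 0.022 (Cd8b1) to 0.961 CPM (Cd3d). The natural killer cell list of 6 genes (Ncr1, Klrb1c, Klra8, Gzma, Prf1, Eomes) summed to 349 to 1785 CPM in these libraries and to 70.3 to 208 CPM in T cells; its part in the delta reads was not tested.

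Library 52, labelled B cells of a RES mouse, held 10877 V reads, within the range of the T-cell libraries, and library 70, labelled T cells of a RES mouse, held 1.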

How the results depend on the processing

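No alternative called any V gene. This held for the level and usage fits in the 3 comparisons under DESeq2, DESeq2 size factors (level fit), all genes with a read kept, a minimum of 10 counts per library, the 2 compared groups alone, thinned counts, library 70 kept (level fit), V genes summed to subgroups (usage fit) and each of the 17 libraries left out in turn, where the counts ranged from 0 to 0. The lowest adjusted p of a V gene under any of them was 0.136. Keeping library 70, which held B cell markers and 1 V read, gave 0 calls over all genes in each comparison. That setting therefore says little about V genes. V genes at an unadjusted p under 0.05 ranged, with 1 library left out, from 2 to 9 in the level fit of SUS vs CON, 0 to 2 in RES vs CON and 0 to 4 in SUS vs RES, and from 1 to 5, 0 to 2 and 0 to 3 in the usage fit. Over all genes, SUS vs CON gave 8 calls in the level fit, 84 under DESeq2 and 0 with library 70 kept, and RES vs CON 0, 11 and 0. Alpha evenness in RES vs CON went from -0.0106 to -0.0013 with genes summed to subgroups; the cause was not tested. That setting also turned the sign for alpha SUS vs CON (0.0034), as Simpson evenness did for beta SUS vs RES (-0.011), both within 1 pooled SD. With each library left out, the alpha difference ranged from -0.00649 to -0.000316 in SUS vs CON, -0.0129 to -0.00747 in RES vs CON and 0.00409 to 0.00931 in SUS vs RES, and the beta difference from 0.00400 to 0.0138, 0.00171 to 0.0115 and -0.00139 to 0.00585. Shares per kilobase were added as a setting after seeing the data. Library 70 has under 50 reads in each chain and gives no usage or evenness value. No paired analysis was possible because every library has a number of its own. Delta shares rest on 61 to 350 reads.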

Other observations

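V reads came to 257 to 308 CPM in the 6 T-cell libraries numbered 64 to 69 and 337 to 474 in the 11 numbered 53 to 63. The split at number 64 was not planned and lies where the values part, so the lack of overlap follows from its choice. Each block holds libraries of all 3 groups, and what the numbers stand for is not given in the sources used here.

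Dntt, the enzyme that adds bases at receptor joints, was read in all groups, at 5.59 ± 2.22 CPM in CON, 6.50 ± 3.56 in SUS and 6.92 ± 2.55 in RES, although the recombinase genes Rag1 and Rag2 were at or near 0.

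Traj18, a joining segment used in the natural killer T cell alpha chain, had 72 to 313 reads in each of the 17 libraries. Trav11 had at most 2 reads and Trav11d at most 23. Which V genes the Traj18 reads were joined to was not read. How reads that fit both Trav11 and Trav11d were counted is not given, so the numbers cannot be compared directly.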
